A study of Mus musculus with 6 samples.

Results

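Macroautophagy is the route by which a cell encloses cytoplasm in a double membrane, the autophagosome, and delivers it to the lysosome for breakdown. The ULK kinase complex starts the process, a lipid kinase complex around the PI3-kinase Pik3c3 marks the site, and Atg9a, Atg2 and WIPI proteins feed membrane to it. Ubiquitin-like reactions then couple Atg12 to Atg5 and the LC3 and GABARAP modifiers to phosphatidylethanolamine, and receptors such as Sqstm1 hold cargo to the lipid-bound modifiers. In intestinal epithelium these genes are known for their part in Paneth cell secretion and in defence against bacteria. SHP, the orphan nuclear receptor encoded by Nr0b2, is known in liver as a repressor of autophagy genes after feeding. Transcript levels, which were measured here, are not a measure of autophagic flux.

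The transcripts described are 35 genes of this machinery, taken by name from the count files and required to have at least 10 counts summed over 6 libraries. All 35, out of 23284 genes in the files, met that minimum, and all 35 passed the expression filter that left 12106 genes for testing. The study sequenced intestinal RNA (jejunum and ileum) from male mice that were 8 weeks old, 3 libraries from wild-type (WT) and 3 from SHP-KO mice. All of the mice had been fasted overnight and refed for 6 h, so that no fasted group is at hand for comparison. The labels name no strain and no SHP allele, do not give the share of jejunum and ileum in a sample, and do not say whether the libraries of a genotype came from separate mice, so the p-values reflect how far these libraries differ from each other, and that spread may be technical.

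Total counts were 11265437 to 13511800 in the WT libraries and 7956528 to 9289543 in the SHP-KO libraries. Unscaled counts of the genotypes are therefore not on the same scale. Nr0b2 had 31, 14 and 23 counts in the WT libraries and 1, 0 and 0 in the SHP-KO libraries, as the labels require. Pairs of libraries of a genotype differed by 1.33 to 1.97 times the sampling noise (chi-square per degree of freedom), so the spread against which genes were tested was small and 8543 genes (70.6%) passed at an adjusted p under 0.05. Enterocyte markers were abundant in both genotypes, with summed levels of 87271 to 89893 CPM (counts scaled to a common library size) in WT and 93756 to 94183 in SHP-KO. Within that sum all 10 enterocyte markers passed the test, 5 higher and 5 lower, with log2 fold changes from -1.24 (Sis) to 2.41 (Lct). Markers of other cell types and of position also moved with genotype: all 10 smooth muscle markers were higher (377 to 381 CPM summed in WT, 1378 to 1416 in SHP-KO), all 9 B cell markers were lower (85.2 to 93.6 against 1.49 to 2.16, with Cr2, Fcer2a and Faim3 at 0 counts in SHP-KO), all 8 proliferation markers were lower (191 to 194 against 72.1 to 75.7), all 6 goblet cell markers tested were higher (2289 to 2368 against 6927 to 7089), and 7 of 8 proximal markers were higher while 6 of 8 ileum markers were lower. Of the markers tested, 6 of 6 for enteric neurons and glia, 6 of 7 for fibroblasts and 4 of 4 for adipocytes were also higher, and 5 of 6 for Paneth cells were lower. Of 8 enteroendocrine markers 7 were higher and 1 lower (156 to 159.7 CPM summed in WT, 451 to 466 in SHP-KO), and of 6 macrophage markers 2 were higher and 3 lower. In bulk tissue fewer cells of a type and less RNA per cell cannot be told apart, and the part of these markers in the results on autophagy genes was not tested. Genotype cannot be told apart from the piece of gut sampled either, and every fold change below carries that limit. The labels do not give the share of jejunum and ileum, and the position markers differed between the genotypes. The ileum markers summed to 17659 to 18037 CPM in WT and to 3144 to 3213 in SHP-KO. The proximal markers summed to 5115.5 to 5208.5 CPM in WT and to 27158 to 27656 in SHP-KO. Single markers went against these sums: Slc40a1 (proximal) was lower, and Slc10a2 and Pyy (ileum) were higher. The marker lists share genes: Gip is enteroendocrine and proximal, Pyy enteroendocrine and ileum, and Lct enterocyte and proximal.

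In SHP-KO intestine 23 of the 35 autophagy genes were lower, 5 were higher (Atg2a, Atg16l1, Gabarap, Optn and Tfe3) and 7 did not pass the test (Pik3r4, Atg4a, Atg4b, Atg5, Atg7, Atg10 and Tfeb). Over all tested genes 35.4% were lower and 35.2% higher by the same rule, against 65.7% and 14.3% of the members. The median log2 fold change of the members was -0.30, against -0.01 over all tested genes. Most changes were modest: 12 members fell by at least 1.5-fold, 34.3% of the list where the share over all tested genes was 17.5%. Atg16l1 alone rose by that much, where the share over all tested genes was 19.5% (37.1% in either direction). The test was edgeR's quasi-likelihood test with Benjamini-Hochberg adjustment over all tested genes, as for every adjusted p given here unless another test is named.

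**Figure D1:**
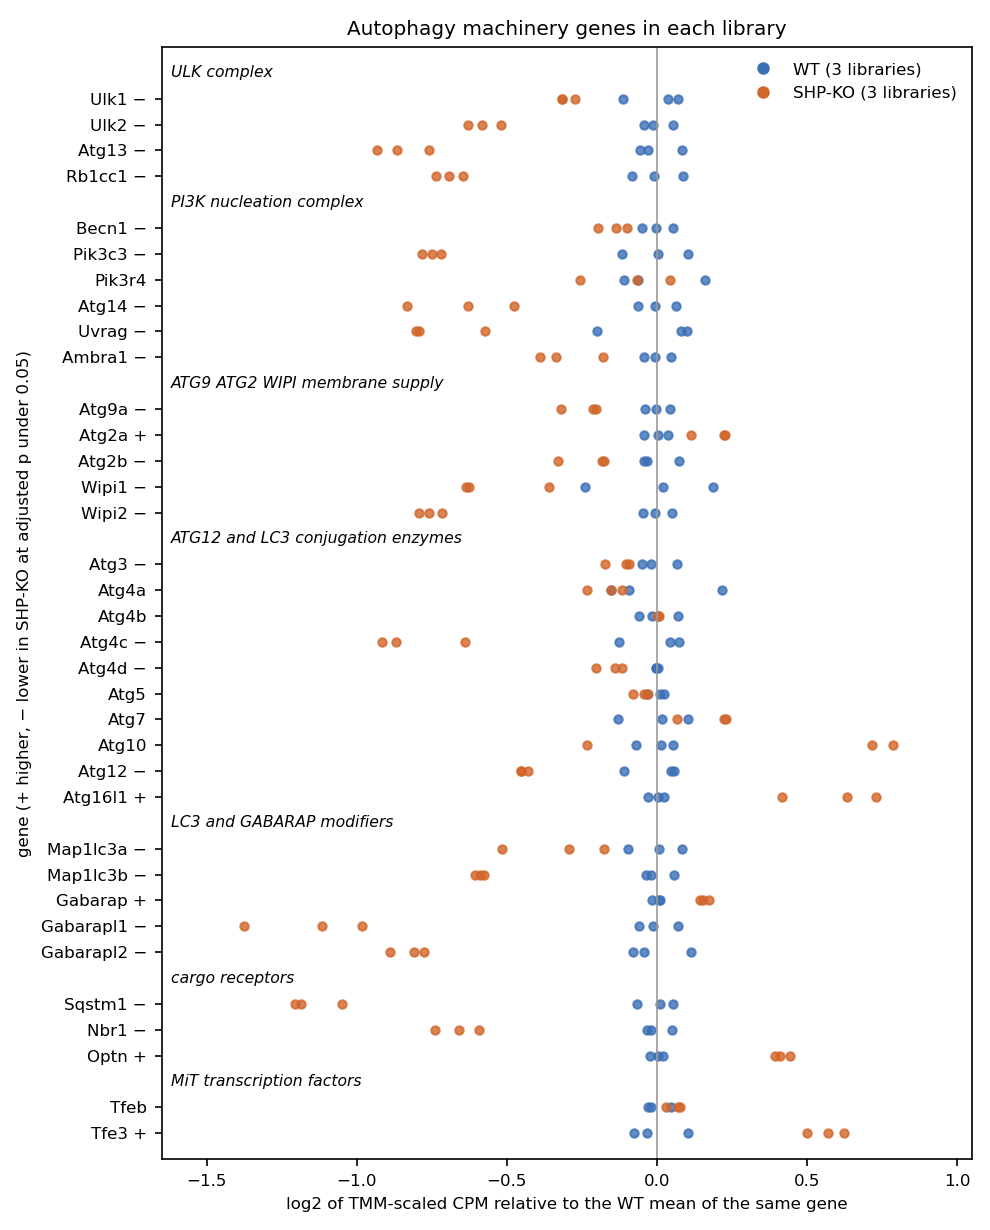
Each point is 1 library (blue WT, orange SHP-KO, 3 each), plotted as the log2 of its TMM-scaled CPM relative to the WT mean of that gene, with genes in rows by role and a plus or minus after those that passed the test. The 23 genes marked as lower have all 3 SHP-KO points to the left of all WT points, and the 5 marked as higher have them to the right.

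The CPM ranges of the genotypes did not overlap for these 28 members, 23 lower and 5 higher, where 36.1% and 35.9% of all tested genes (72.0% in all) were separated in that way. Fewer members passed in the deposited comparison. The authors' deposited table had 12 members lower at an adjusted p under 0.05, 0 higher and 23 not passing, with 34.6% of its genes passing (15.6% lower, and 2460 of its 12939 genes higher). The 12 were Atg13, Rb1cc1, Pik3c3, Atg14, Uvrag, Wipi2, Atg4c, Map1lc3b, Gabarapl1, Gabarapl2, Sqstm1 and Nbr1. Of the 5 members that rose here, Atg16l1 and Tfe3 had unadjusted p-values under 0.05 in the authors' deposited table (0.020 and 0.024). An edgeR exact test with an assumed coefficient of variation (CV) of 0.2 between replicates gave that table's p-values to within 6.0e-15. On the genes tested here, the exact test called 12 members lower and Atg16l1 higher, with 33.4% of all tested genes called (15.5% lower and 17.9% higher). The other 15 calls, 11 lower and 4 higher, did not pass in that exact test, which differs from the quasi-likelihood test in both the test and the dispersion.

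The members fall into initiation, conjugation and cargo receptor roles. Of 15 initiation genes (the ULK complex, the nucleation complex and the membrane supply) 13 were lower, 1 was higher and 1 did not pass; their median log2 fold change was -0.55. Of 15 conjugation genes (enzymes and modifiers together) 8 were lower, 2 higher and 5 did not pass; their median was -0.15. Of the 3 cargo receptors 2 were lower and 1 was higher, with a median of -0.66, which among 3 genes is the value of Nbr1. The authors' deposited table had 6 of the 15 initiation genes, 4 of the 15 conjugation genes and 2 of the 3 receptors lower. Over all tested genes 35.4% were lower, 35.2% higher and 70.6% called in either direction, and 15.6% were lower in the authors' deposited table. The share of conjugation genes called, 66.7%, was near that of all tested genes. Genes of a class are not replicates, and the difference between classes was not tested.

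All 4 genes of the ULK complex were lower. Atg13, the adaptor that holds the kinase to its scaffold, lies on chromosome 2 from 91514769 to 91550749 (mm9, 16 exon intervals). It was at 55.4, 60.0 and 54.5 CPM in WT replicates 1 to 3 and at 33.5, 31.1 and 29.7 in SHP-KO replicates 1 to 3. The highest SHP-KO library was far below the lowest WT library, and the gene fell 1.80-fold (log2 -0.85, SE 0.067, adjusted p 2.3e-20). Rb1cc1, which encodes the large scaffold FIP200, had 50.6 to 57.0 CPM in WT and 32.2 to 34.3 in SHP-KO, a fall of 1.62-fold. Of the 2 kinases of the complex, Ulk2 was 1.49-fold lower (log2 -0.58, SE 0.086), near the fall of Rb1cc1 (log2 -0.69, SE 0.067). Ulk1, at 23.1 to 26.3 CPM in WT and 20.1 to 20.7 in SHP-KO, fell less, by 1.23-fold. Within a library the ratio of Ulk1 to Ulk2, which does not depend on how libraries are scaled, had a log2 of 0.07, 0.00 and -0.22 in WT and of 0.15, 0.27 and 0.26 in SHP-KO. These 2 ranges did not overlap, with p = 0.1 in a two-sided exact permutation test, the smallest p that 3 against 3 libraries can give.

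In the nucleation complex 5 of 6 genes were lower. Pik3c3 encodes the lipid kinase VPS34 itself, and went from 27.4 to 32.0 CPM in WT to 17.3 to 18.1 in SHP-KO, 1.69-fold lower. Uvrag and Atg14, which direct the kinase to endosomes and to autophagosome sites respectively, were 1.63-fold and 1.55-fold lower (adjusted p 7.5e-09 and 1.1e-08). Ambra1, a regulator that binds Beclin 1, fell 1.23-fold. Becn1, which encodes Beclin 1, fell 1.10-fold, from 119 ± 4.25 to 108 ± 3.67 CPM (SD, n = 3 per genotype, as for every ± here; adjusted p 0.0021). Of the exon length of Becn1, 21.4% overlaps exons of Cntd1 on the other strand, and the counting did not use strand, so its value is less certain than the others. Pik3r4, the regulatory subunit that carries the kinase, was at 18.5 ± 1.89 CPM in WT and at 17.5 ± 1.82 in SHP-KO, with overlapping libraries and a log2 fold change of -0.09 (SE 0.096).

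Of the 5 genes of membrane supply 4 were lower and 1, Atg2a, was higher. Wipi2, which reads the lipid made by VPS34 and recruits Atg16l1, was at 94.9, 97.5 and 102 CPM in WT and at 56.5, 57.9 and 59.6 CPM in SHP-KO. The libraries of a genotype lay close together and the gene fell 1.69-fold (log2 -0.76, SE 0.050, adjusted p 1.7e-24). Its relative Wipi1 was a low transcript, with 41 to 64 counts in WT and 24 to 26 in SHP-KO, and its fall (log2 -0.55, adjusted p 0.017) was lost without WT replicate 3 (adjusted p 0.086), without SHP-KO replicate 2 (0.059) or without SHP-KO replicate 3 (0.057). Atg9a, the membrane protein of the vesicles that seed autophagosomes, fell 1.18-fold from 229 ± 6.59 to 194 ± 8.75 CPM. The lipid transfer proteins Atg2a and Atg2b differed in direction. Neither passed in the authors' deposited table (adjusted p 0.63 and 0.48). Atg2a was at 63.6, 62.2 and 60.2 CPM in WT and at 72.5, 72.4 and 67.0 in SHP-KO, a rise of 0.19 on the log2 scale, while Atg2b was 1.17-fold lower, a fall that was lost without SHP-KO replicate 1 (adjusted p 0.058). The ratio of Atg2a to Atg2b was 2.01 to 2.29 in WT libraries and 2.66 to 3.20 in SHP-KO libraries (exact permutation p = 0.1, two-sided).

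Of the 10 genes of the conjugation reactions other than the modifiers, 4 were lower, 1 was higher and 5 did not pass; the median log2 fold change was -0.09. The 40% lower was near the 35.4% of all tested genes, and the 50% called was below their 70.6%. Atg7, the E1 enzyme of both conjugation reactions, had 14.6 to 17.2 CPM in WT libraries and 16.8 to 18.8 in those of SHP-KO (log2 0.17, SE 0.097, adjusted p 0.10). Atg5, the acceptor of Atg12, was at 47.0 ± 0.953 and 45.4 ± 0.798 CPM (log2 -0.05, SE 0.063). Atg3, the E2 enzyme for LC3, fell 1.09-fold at an adjusted p of 0.036, which was lost without WT replicate 3 (0.17) or without SHP-KO replicate 2 (0.14). Atg10, the E2 enzyme for Atg12, had 13 to 17 counts in WT and 8 to 18 in SHP-KO, and its log2 fold change of 0.51 had an SE of 0.32 and an adjusted p of 0.16: a change was not detectable at this depth. Atg12 itself fell 1.36-fold, from 46.6 to 52.4 CPM to 36.8 to 37.4.

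Tfeb and Tfe3 encode transcription factors of the MiT family, which bind the palindrome CACGTG in promoters of lysosome and autophagy genes. In RefSeq promoters (GRCm38.p6, which is not the build of the counts), 29 of the 35 members were matched, with 35 promoters, and the 250 bases upstream of each start were searched on both strands. CACGTG was found in 3 of the 35 promoters, those of Atg7, Atg5 and Atg3, against 6.02% of all 32851 promoters. The longer form TCACGTGA, which contains it, was found once, in Atg3, against 0.785% of all promoters. The cyclic AMP response element TGACGTCA and the nuclear receptor motif TCAAGGTCA, which LRH-1, a known partner of SHP, can bind, were found in none of the 35, against 1.55% and 0.387% of all promoters. A match is a description of letters only. The stretches around the matches are shown because the 3 genes that hold them all act in the conjugation reactions. Atg7 and Atg5 did not pass the test and Atg3 fell 1.09-fold. The capitals mark CACGTG, all strands are plus, and the intervals are chr6:114670952-114670981 for Atg7, chr10:44268313-44268338 for Atg5 and chr16:45158723-45158752 and chr16:45158746-45158775 for Atg3.
Atg7: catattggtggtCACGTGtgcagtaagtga
Atg5: cggagcgcttgcCACGTGgtcttggt
Atg3, first match: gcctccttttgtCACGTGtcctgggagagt
Atg3, second match: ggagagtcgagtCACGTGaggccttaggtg

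Atg16l1, which carries the Atg12-Atg5 conjugate to the membrane and whose human counterpart is a Crohn's disease risk gene, was the member with the largest rise. It was at 18.3, 18.6 and 17.9 CPM in WT and at 28.4, 30.3 and 24.4 in SHP-KO. All 3 SHP-KO libraries were above all WT libraries, though spread more widely, and the gene rose 1.52-fold (log2 0.60, SE 0.085, adjusted p 1.5e-09). Its ratio to Atg5 within a library was 0.375 to 0.405 in WT and 0.535 to 0.681 in SHP-KO (exact permutation p = 0.1, two-sided). In the authors' deposited table its adjusted p was 0.056, and in the exact test with a CV of 0.2 on the genes tested here it was 0.049.

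The Atg4 proteases, which prime the modifiers and later free them from lipid, did not move as a family. Atg4c was at 22.7, 22.3 and 19.8 CPM in WT and at 11.5, 11.8 and 13.9 in SHP-KO, 1.74-fold lower with no overlap (log2 -0.80, adjusted p 2.9e-11). Atg4d fell 1.11-fold, and 31.2% of its exon length overlaps Kri1 on the other strand, so that its count is less certain. Atg4b had 54.9 to 60.0 CPM in WT libraries and 57.3 to 57.4 in those of SHP-KO, a log2 fold change of 0.01 (SE 0.058). Atg4a did not pass (log2 -0.17, SE 0.107, adjusted p 0.15), but was called lower without WT replicate 2 (adjusted p 0.049).

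The modifiers that end up on the autophagosome membrane divided into 1 gene that rose and 4 that fell. Gabarap, by far the most abundant member per length, was at 498, 489.8 and 497 CPM in WT and at 559, 550.5 and 547 in SHP-KO. The rise was small but wider than the spread of either genotype (1.12-fold, log2 0.16, SE 0.027, adjusted p 4.3e-07). Its log2 was 0.12 without scaling factors and 0.097 with no filter on low counts. In the authors' deposited table Gabarap had an adjusted p of 0.70. Gabarapl1, its closest relative, was at 22.0, 24.0 and 22.7 CPM in WT and at 10.6, 11.6 and 8.82 in SHP-KO. This was the largest change of any member together with that of Sqstm1, a fall of 2.21-fold (log2 -1.14, SE 0.103, adjusted p 3.0e-17). Gabarapl2 fell 1.77-fold (50.4 ± 3.69 to 28.5 ± 1.12 CPM) and Map1lc3b, the LC3 form most used as an autophagosome marker, 1.5-fold (78.0 ± 2.74 to 51.8 ± 0.590 CPM). Map1lc3a fell by 0.32 on the log2 scale, with SHP-KO libraries at 40.6, 34.8 and 44.0 CPM. These genes are close relatives, and reads that align to several places were not requested in the counting, which can lower their counts. An overlap with 1700101I11Rik on the other strand covers 2.65% of the exon length of Gabarapl1.

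**Figure D2:**
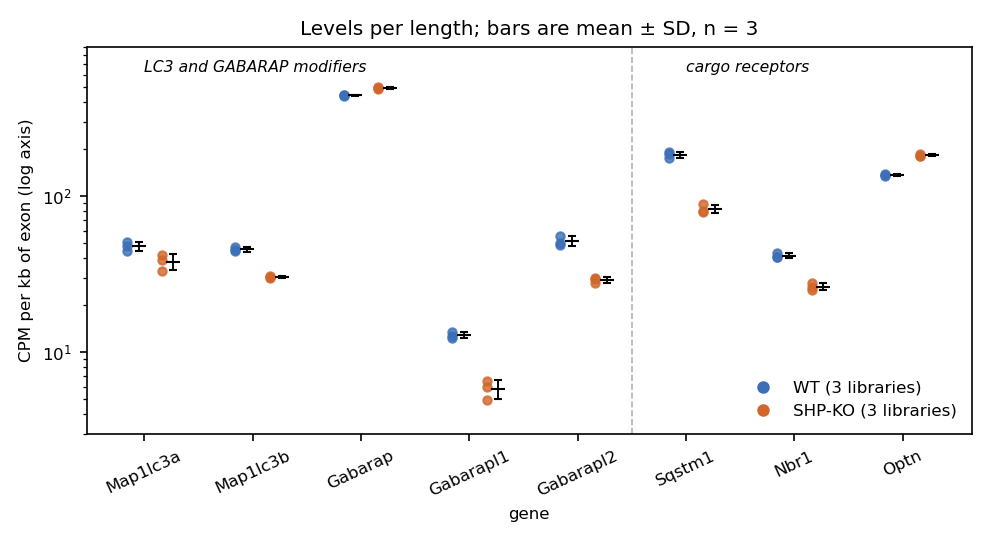
Levels per kilobase of exon on a log axis for the 5 modifiers and the 3 cargo receptors, with 1 point per library (blue WT, orange SHP-KO) and mean ± SD beside them (n = 3). Gabarap lies near 441 and 492, and Optn (182) lies above Sqstm1 (83.0) in SHP-KO, the reverse of their order in WT (137 and 184).

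The summed level of the 5 modifiers per length was close in both genotypes while its makeup differed. The sum was 599 ± 2.24 CPM per kilobase of exon in WT and 595 ± 5.41 in SHP-KO. Gabarap made up 73.7 ± 0.459% of that sum in WT and 82.7 ± 0.584% in SHP-KO. Gabarapl2 went from 8.59 ± 0.598% to 4.88 ± 0.236%, Map1lc3b from 7.61 ± 0.295% to 5.08 ± 0.0570% and Gabarapl1 from 2.16 ± 0.106% to 0.979 ± 0.136%. The ratio of Gabarap to Gabarapl1 counts was 22.7, 20.4 and 21.9 in WT and 52.9, 47.5 and 62.0 in SHP-KO, which is 2.49-fold higher. That of Gabarap to Gabarapl2 was 9.12 to 10.3 in WT and 18.7 to 20.5 in SHP-KO. The log2 ratio of Map1lc3a to Map1lc3b was -0.71 to -0.62 in WT and -0.56 to -0.25 in SHP-KO. None of these ranges overlapped, each with the smallest possible exact permutation p of 0.1 (two-sided).

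Among the cargo receptors Sqstm1 and Nbr1 were lower and Optn was higher. Sqstm1, which encodes p62, the receptor that brings ubiquitinated protein to the autophagosome and is itself degraded with it, lies on chromosome 11 from 50013654 to 50024292 (mm9, 8 exon intervals). It was at 351, 381 and 369.8 CPM in WT and at 159, 178 and 161 in SHP-KO. No SHP-KO library came near the WT range, and the fall was 2.21-fold (log2 -1.14, SE 0.036, adjusted p 1.7e-45). Nbr1, a receptor with a similar domain layout that works beside p62, had 210.4, 208 and 221 CPM in the WT libraries and 128, 141 and 135 in the SHP-KO libraries, a fall of 1.58-fold. Optn, which encodes optineurin, a receptor for damaged mitochondria and bacteria, had 334, 324 and 330.0 CPM in the WT libraries and 438, 433 and 448 in the SHP-KO libraries, 1.33-fold higher (log2 0.42, SE 0.029, adjusted p 6.1e-23). In the authors' deposited table Optn had an adjusted p of 0.19.

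Among these 3 receptors, Sqstm1 and Optn exchanged places. Receptors among the further pathway genes below are not part of this order or of the shares given. Sqstm1 stood at 184 ± 7.64 CPM per kilobase of exon in WT, above Optn at 137 ± 2.15, whereas in SHP-KO Optn stood at 182 ± 3.10 and Sqstm1 at 83.0 ± 5.03. Of the summed level of the 3 receptors per length, Sqstm1 made up 50.8 ± 1.36% in WT and 28.5 ± 1.34% in SHP-KO, and Optn 37.8% and 62.5%. The ratio of Optn to Sqstm1 counts was 0.953, 0.850 and 0.892 in WT and 2.75, 2.44 and 2.78 in SHP-KO, 2.95-fold higher and the widest shift of the 10 pairs examined. The ratio of Nbr1 to Sqstm1 had a log2 of -0.87 to -0.74 in WT and of -0.33 to -0.26 in SHP-KO.

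**Figure D3:**
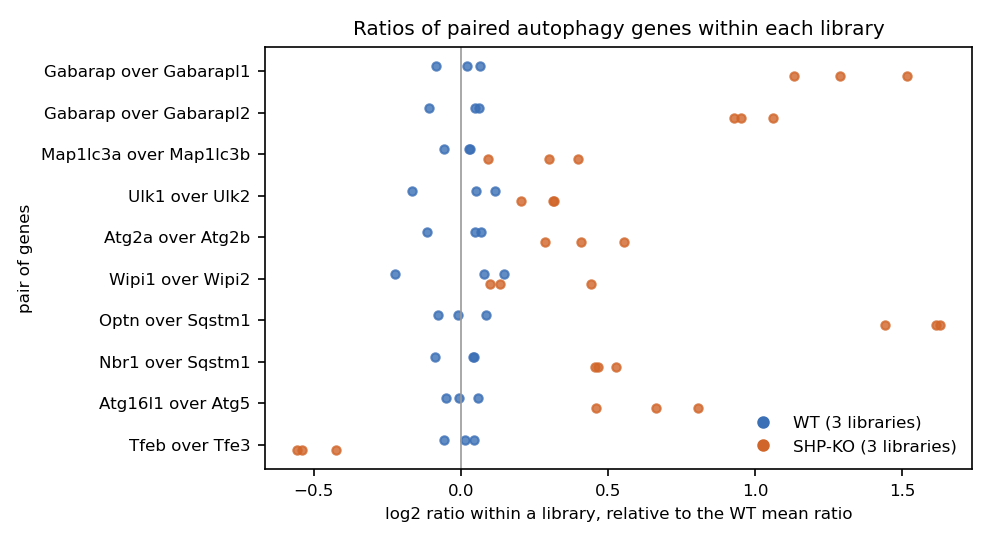
For 10 pairs of genes, the log2 ratio of their levels in each library relative to the mean ratio in WT (blue WT, orange SHP-KO, 3 libraries each). Optn over Sqstm1 and Gabarap over Gabarapl1 lie farthest to the right in SHP-KO, Tfeb over Tfe3 lies to the left, and Wipi1 over Wipi2 is the pair whose genotypes overlap.

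Of the 10 pairs, 9 had no overlap between genotypes (exact permutation p = 0.1, two-sided, 0.11 after Benjamini-Hochberg adjustment over the 10 pairs) and Wipi1 over Wipi2 overlapped (p = 0.3). With 3 libraries per genotype no pair can reach a p under 0.05 in this test. For scale, the CPM of 72.0% of all single tested genes did not overlap between genotypes. The share over gene pairs in general was not computed, so the count of 9 is not a result particular to these pairs.

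Neither transcription factor of the list was called lower. For Tfeb the WT libraries had 31.5, 33.1 and 31.7 CPM and the SHP-KO libraries 33.9, 33.7 and 32.8. The ranges overlapped, and the log2 fold change was 0.06 (SE 0.071, adjusted p 0.45). Tfe3 was at 38.9, 43.9 and 40.0 CPM in WT and at 57.9, 63.1 and 60.7 in SHP-KO, all 3 above WT, and rose 1.49-fold (log2 0.57, SE 0.062, adjusted p 1.1e-13). In the authors' deposited table the adjusted p of Tfe3 was 0.065. The ratio of Tfeb to Tfe3 was 0.754 to 0.810 in WT and 0.534 to 0.585 in SHP-KO.

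In WT the order of the members began with Gabarap (441 ± 4.16 CPM per kilobase of exon), Sqstm1, Optn, Atg9a (60.9 ± 1.75) and Becn1 (58.8 ± 2.09), the last 2 lying within each other's spread, and ended with Atg2b (2.80 ± 0.126), Wipi1 (2.34 ± 0.343) and Atg10 (0.744 ± 0.0324). In SHP-KO the same 5 genes led and the same 3 came last, with Optn above Sqstm1 and Becn1 above Atg9a, these last again within the spread. Gabarapl2 went from rank 6 to rank 10 and Gabarapl1 from rank 17 to rank 23, while Tfe3 went from rank 18 to rank 14 and Atg16l1 from rank 27 to rank 21.

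Further genes of the pathway, 81 listed by function and 77 of them tested, gave 20 higher, 38 lower and 19 not passing (26.0% higher and 49.4% lower, against 35.2% and 35.4% of all tested genes). Partners of the ULK and lipid kinase complexes had 7 of 11 lower and 1 higher (median log2 -0.17). Wdr45, a WIPI family protein, fell 1.68-fold and Zfyve1, which marks the membrane site where autophagosomes form, 1.53-fold, while 1700021K19Rik, the symbol in the files for Rubicon, a brake on the lipid kinase, rose 1.22-fold. Other cargo receptors and mitophagy genes were mostly lower, with 9 of 11 lower, 1 higher and a median log2 of -0.58. Fam134b, the receptor for endoplasmic reticulum, was at 52.3, 45.1 and 48.9 CPM in WT and at 15.3, 14.7 and 12.7 in SHP-KO, 3.44-fold lower. Bnip3l, a receptor for mitochondria, fell 1.81-fold, and Tollip, a ubiquitin-binding adaptor, rose 1.33-fold.

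Genes of the last step, fusion of autophagosome and lysosome, were more often called higher than lower: 9 of 13 were higher and 2 lower, with a median log2 of 0.31. Over all tested genes 35.2% were higher. With a fold of at least 1.5, only 1 of these genes was higher and 2 were lower. By that rule 19.5% of all tested genes were higher and 17.5% lower. Vps16, a subunit shared by the HOPS and CORVET tethers, was at 33.1, 34.6 and 33.0 CPM in WT and at 66.6, 63.2 and 70.9 in SHP-KO, 1.99-fold higher (adjusted p 6.1e-26). The other HOPS subunits, singled out after their values were seen, rose by 1.24-fold (Vps11), 1.38-fold (Vps18) and 1.43-fold (Vps33a and Vps39), and Vps41 did not pass (log2 -0.09). Tecpr1, a tether on the lysosome side, rose 1.48-fold. Plekhm1, an adaptor that links Rab7 to HOPS and to the modifiers, fell 1.68-fold, and Rab7 itself, the small GTPase of late endosomes, fell 1.53-fold.

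Among 24 tested genes of nutrient control 7 were higher, 11 lower and 6 did not pass (median log2 -0.07). That is 75% called, near the 70.6% of all tested genes, of which 35.2% were higher and 35.4% lower. Flcn, which encodes folliculin, an activator of Rag GTPases that keeps Tfeb and Tfe3 out of the nucleus, was at 14.4, 15.4 and 13.9 CPM in WT and at 42.0, 34.7 and 36.4 in SHP-KO, 2.58-fold higher. Tsc2, a brake on the kinase mTOR, rose 1.29-fold. Ddit4, a stress-induced inhibitor of mTOR, fell 3.08-fold from 22.7 ± 1.33 to 7.39 ± 1.41 CPM, and Foxo3, a transcription factor that drives autophagy genes in fasting muscle, fell 2.52-fold. Of 18 lysosome genes that Tfeb is known to bind, 9 were lower, 2 higher and 7 did not pass (median log2 -0.12), so that 61.1% were called, below the share of all tested genes. Neu1, the lysosomal sialidase, fell 3.78-fold from 577 ± 24.1 to 153 ± 10.1 CPM and Gla, the alpha-galactosidase, 1.71-fold, while Gaa, the acid glucosidase that breaks down glycogen, rose 1.62-fold and Ctsa, a protective protease, 1.13-fold.

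**Figure D4:**
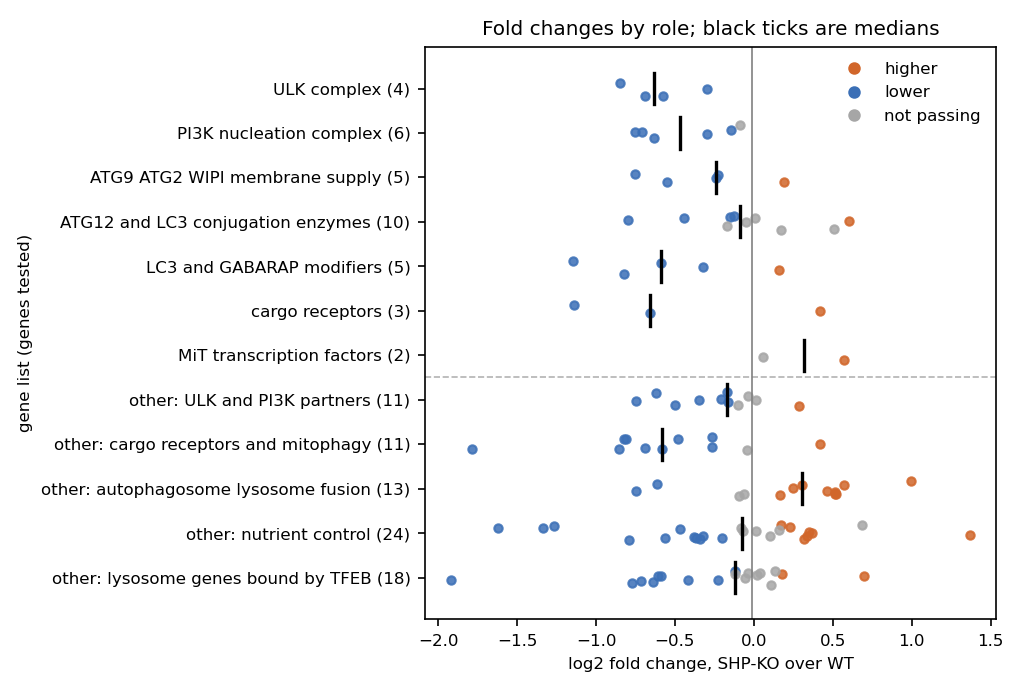
Log2 fold changes (SHP-KO over WT) of the 35 members by role, above the dashed line, and of 77 further pathway genes, below it, coloured by call (orange higher, blue lower, grey not passing). Black ticks are list medians and the grey vertical line is the median of all tested genes (-0.01). The medians of the cargo receptor (-0.66, 3 genes) and ULK (-0.64, 4 genes) lists lie to its left and that of the fusion list to its right (0.31).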

How the data were processed

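RNA-seq of 6 intestinal libraries (WT and SHP-KO, 3 each, 100 bp reads per the labels' protocols) was analysed from the deposited counts. Tools listed in the submitters' processing notes are STAR 2.6.0c, Trimmomatic 0.38, FastQC 0.11.5, bcl2fastq 2.17.1.14 and edgeR, with build mm9. Deposited values are whole-number read counts per gene over exons, without strand, from featureCounts 1.5.2, per the file headers. The authors' deposited table gives log2 fold changes, log2 mean CPM, p-values and adjusted p-values.

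Genes were filtered with filterByExpr (minimum count 10), scaled by TMM and tested with edgeR 4.0.16 (quasi-likelihood, robust) in R 4.3.3, with a threshold of 0.05 after Benjamini-Hochberg adjustment over 12106 genes. The fit was tested on data simulated with a common spread taken from these libraries. That cannot show how the fit handles a larger spread between mice. CPM are TMM-scaled, and CPM per kilobase uses the files' exon length. Ratios were compared by an exact permutation test. The members, the lists and the alternatives were chosen with earlier results of these data known. All members were named. Of the further pathway genes, the 2 largest rises and 2 largest falls per list were named among called genes with at least 1 CPM, and Prkaa2 and the HOPS subunits were added after their values were seen. Gene coordinates are mm9. Alternatives used DESeq2 1.42.0 and limma 3.58.1. Totals set the precision of low counts.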

Additional observations from a re-analysis of the deposited data

How the results depend on the processing

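The exact test with an assumed CV of 0.2, which changes the test and the dispersion together, moved the counts of calls most: 1 member was called higher and 12 lower (main test 5 and 23), and 4 further pathway genes were called higher and 19 lower (main test 20 and 38), all of them called in the main test except 1 (Prkaa2, higher). Over all tested genes the exact test called 17.9% higher and 15.5% lower. With no filter on low counts the median log2 fold change of conjugation genes (-0.15) went to -0.21. Those of initiation genes (-0.55) and cargo receptors (-0.66) moved in the same way, to -0.61 and -0.72. Without any 1 library the median of conjugation genes lay between -0.16 and -0.097. That of initiation genes lay between -0.59 and -0.45 and that of cargo receptors between -0.70 and -0.63. In each case 5 members were higher and 21 to 24 lower, with 19 to 21 and 37 to 40 of the further pathway genes. Atg4b, which did not pass, changed sign to -0.031 without scaling factors, -0.0038 with upper quartile scaling and -0.053 with no filter, and lay between -0.030 and 0.033 without 1 library. Tfeb, which did not pass either, went to -0.00010 with no filter. DESeq2's Wald test did not pass Atg2b, Wipi1 or Atg3, and Atg4a was called lower with no filter (adjusted p 0.049, edgeR). With DESeq2 size factors, the stricter filter, limma-voom, no robust estimation or the replicate block, all 35 members kept their direction and call, so the block gave 5 members higher and 23 lower, with 21 and 38 of the further pathway genes. The replicate numbers did not pair the libraries: the deviations of same-numbered libraries from their genotype means correlated at 0.018, 0.021 and -0.0064. Depth limits Atg10 and Wipi1, which had the lowest counts.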

Other observations

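Prkaa2, which encodes a catalytic subunit of the energy sensor AMPK, had 128, 142 and 1006 counts in SHP-KO replicates 1 to 3 (16.3, 15.5 and 115 CPM), against 30.3 to 31.1 CPM in WT. It was singled out after its values were seen. The 3 SHP-KO libraries thus lie on both sides of the WT range, and the gene did not pass (log2 0.68, SE 0.93, adjusted p 0.55, edgeR's quasi-likelihood test).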
